A study of Arabidopsis thaliana with 11 samples.

Results

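6 genes of the small RNA pathway and its targets were followed across torpedo-stage embryos of 7 Arabidopsis accessions: AGO7, AT5G21030 (AGO8), SE, DDL, TGH and PHV. They were taken by name, and each was read with the probe set that the chip annotation assigns to that gene and to no other; every one of the 6 genes had exactly 1 such probe set, so they make up 6 of the 13350 genes with a probe set of their own and 6 of the 22746 probe sets tested. All plants were wild type, and whole embryos were dissected from maturing seeds, so that each array measured RNA of pooled embryos and not of the shoot meristem alone. The ZLL-dependent accessions, in which stem cell maintenance needs the ARGONAUTE gene ZLL, were Fe-1 with 3 arrays and Ler-0, Nw-0 and Bay-0 with 1 array each; the ZLL-independent accessions were Col-0 with 3 arrays and Ts-1 and Van-0 with 1 array each. The labels describe the Col-0 and Fe-1 arrays as biological replicates. The labels of the Ler-0 array also call it Ler-1, and those of the Ts-1 array also give Tossa del Mar-0; the names in the titles are used. The Ler-0 accession carries the erecta mutation.

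Small RNAs guide ARGONAUTE proteins to complementary transcripts, which are then cut or silenced. In plants a microRNA is released from a folded precursor by the nuclease DCL1, which SE (a zinc finger protein), DDL (a forkhead-associated domain protein) and TGH (a G-patch RNA-binding protein) assist. AGO7 binds a microRNA that starts the production of trans-acting small interfering RNAs, which restrain auxin response factors. PHV, a class III homeodomain-leucine zipper transcription factor, specifies the upper leaf side and is itself a microRNA target, and ZLL protects such transcripts by sequestering that microRNA. AT5G21030 encodes a member of the ARGONAUTE family that is often regarded as a pseudogene. ZLL itself, AGO1, DCL1, HYL1, PHB and REV were not analysed here.

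Values are RMA-normalised log2 intensities, on which a difference of 1 is a doubling, and levels are compared within a probe set only. Across probe sets, r was 0.996 to 0.997 between replicate arrays and 0.978 to 0.988 between accessions. Of the tissue markers, AGL62 and IKU2, which act in the endosperm, lay below the lower quartile of every one of the 11 arrays. The seed coat gene BAN read 8.77 and 7.40 in Fe-1 replicates 2 and 3 and 7.61 in Van-0, against 4.67 to 5.95 in the other 8 arrays, and DFR, a pigment enzyme gene of the seed coat, read 9.51, 7.53 and 7.43 in those arrays and 7.97 in Ler-0, against 5.28 to 6.33 in the rest. The storage protein gene PAP85 read 11.14 in Ler-0 and 6.56 to 8.32 in the other 10 arrays. These were 2 of 7 seed coat, 1 of 10 embryo and 2 of 8 endosperm markers listed; the others were not analysed here. The part of seed coat tissue or of embryo age in the results below was not tested. Some fits were repeated without the 3 arrays of high BAN signal (Fe-1 replicates 2 and 3, and Van-0), which also leaves fewer replicate arrays to estimate the spread.

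PHV was the gene of the 6 whose level differed most among the accessions. In Col-0 it read 9.80, 9.73 and 9.69, and in Fe-1 9.90, 9.84 and 9.99. The single arrays read 9.88 in Nw-0, 10.02 in Ts-1, 10.08 in Van-0, 10.16 in Ler-0 and 10.22 in Bay-0. All 3 Col-0 arrays therefore lay below all 8 arrays of the other accessions, as they did for 8.38% of all probe sets. The Col-0 arrays also had the lowest medians over all probe sets, 7.573 to 7.585 against 7.586 to 7.705 in the 8 others. With each array centred on its median, PHV in Fe-1 was 0.073 above Col-0 (limma, adjusted p = 0.533), against 0.17 with the deposited values. The Col-0 and Fe-1 arrays of PHV overlapped after centring, so the separation of Col-0 from all 8 other arrays did not hold there. In bulk embryos a larger share of cells with PHV transcript and more transcript per cell cannot be told apart.

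**Figure D1:**
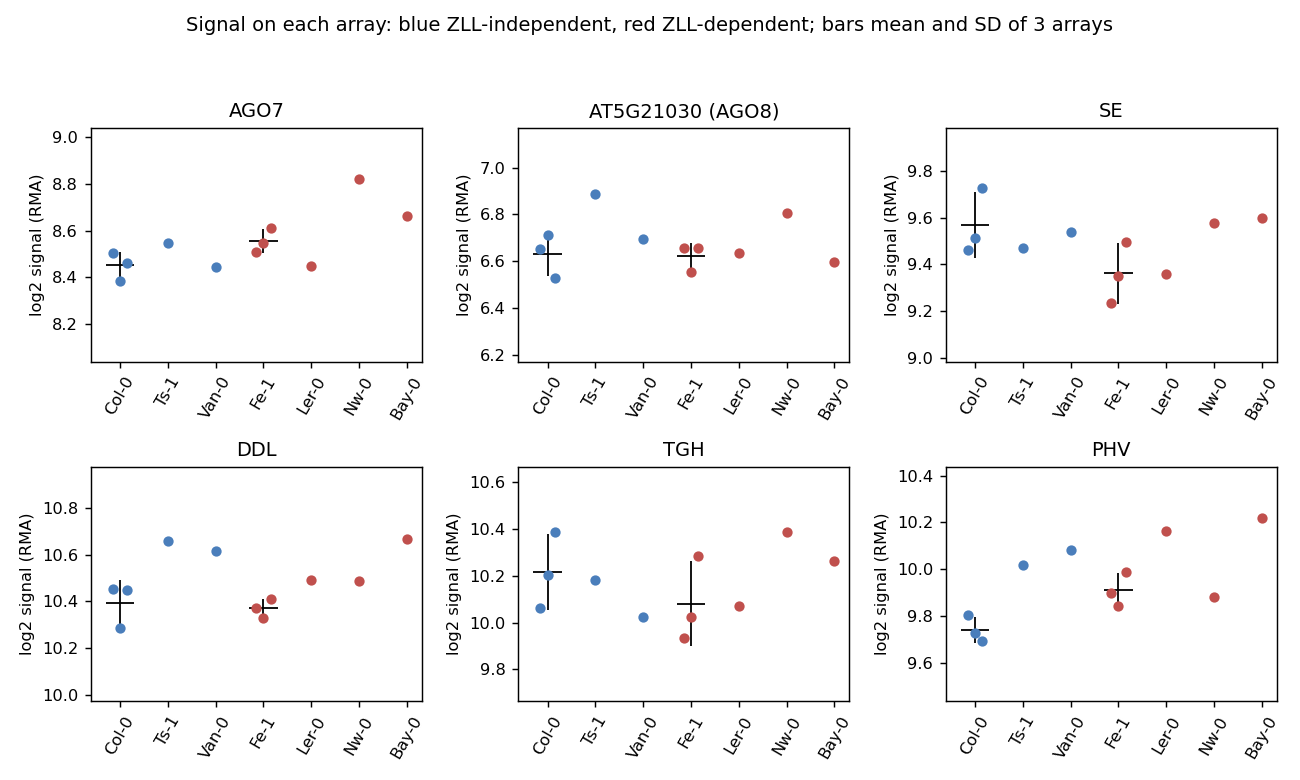
Log2 intensity of each of the 6 genes (vertical axis of each panel) in the 11 arrays by accession (horizontal axis), 1 point per array, red for ZLL-dependent and blue for ZLL-independent accessions, with the mean and SD of the 3 Col-0 and 3 Fe-1 arrays as black bars. The 3 Col-0 arrays of PHV sit between 9.69 and 9.80, below the 8 other arrays at 9.84 to 10.22, whereas the Col-0 arrays overlap the others for the remaining 5 genes.

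The accession means of PHV spanned 0.48 on the log2 scale, a 1.39-fold difference from Col-0 to Bay-0, and differed among accessions (limma F test, adjusted p = 0.0476). At an adjusted p under 0.05 over all probe sets, 1 of the 6 genes was thus called, against 31.0% of all probe sets. PHV was higher than Col-0 by 0.48 ± 0.10 (standard error) in Bay-0 (limma, adjusted p = 0.0223; 1 array against 3) and by 0.42 ± 0.10 (standard error) in Ler-0 (1.34-fold; adjusted p = 0.0334; 1 array against 3). Of all probe sets, 14.2% were called for Bay-0 and 8.32% were called higher there; for Ler-0 the shares were 13.8% and 8.18%. In the other accessions the differences from Col-0 were 0.34 in Van-0 (adjusted p = 0.0667), 0.28 in Ts-1 (adjusted p = 0.158), 0.17 in Fe-1 (adjusted p = 0.123) and 0.14 in Nw-0 (adjusted p = 0.463), all by limma. The 95% interval of the Fe-1 difference ran from 0.00058 to 0.34. On the Bay-0 array BAN read 4.72, DFR 5.28 and PAP85 7.16, and on the Ler-0 array BAN read 5.26, DFR 7.97 and PAP85 11.14. The Col-0 arrays read 4.67 to 5.95 for BAN, 5.50 to 6.16 for DFR and 7.79 to 8.19 for PAP85, and the part of these differences in the PHV values was not tested. The spread of the lone arrays was not measured and was taken from Col-0 and Fe-1.

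The call of PHV across accessions held in 8 of 19 alternative settings, among them the unadjusted p, which passes wherever the adjusted p does. The adjusted p ran from 0.0229 to 0.115 by limma, while the range of its accession means stayed between 0.41 and 0.51. When 1 array was left out the call was lost without Bay-0 (limma, adjusted p = 0.0724), Ler-0 (0.0593), Col-0 replicates 1, 2 or 3 (0.0828, 0.111 and 0.100), Fe-1 replicate 1 (0.0948) or Fe-1 replicate 2 (0.0833). The difference of Ler-0 from Col-0 lost its call without Col-0 replicates 1, 2 or 3 (0.0522, 0.0676 and 0.0654) and without Fe-1 replicates 1 or 2 (0.0611 and 0.0527). That of Bay-0 kept its call whichever of the 10 other arrays was left out (limma, adjusted p from 0.0223 to 0.0483). The Bay-0 array itself, the only one of its accession, could not be left out. Omitting Ler-0, Nw-0, Ts-1 or Van-0 could not change this call, since these lone arrays enter neither the difference nor the spread. With the 3 arrays of high BAN signal left out together, the PHV values were the same as with all arrays, 0.48 across accessions, 0.42 for Ler-0 and 0.48 for Bay-0, since none of them uses those arrays. Their adjusted p, from the fewer arrays left to estimate the spread, was 0.115, 0.0740 and 0.0583 by limma, so that no call remained.

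**Figure D2:**
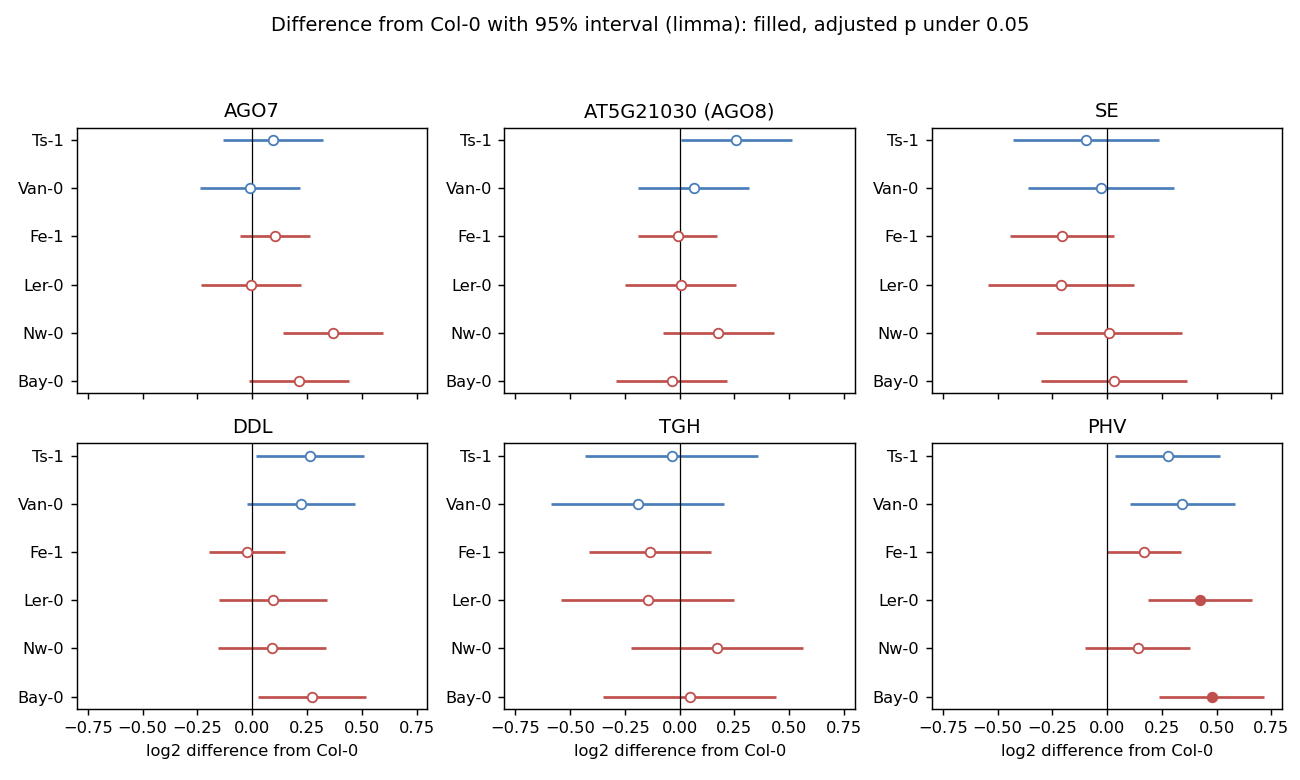
Log2 difference of each accession from Col-0 (horizontal axis) for the 6 genes, with points at the limma estimate, filled where the adjusted p was under 0.05, and bars for the 95% interval; red and blue mark ZLL-dependent and ZLL-independent accessions. PHV lies above 0 in all 6 accessions, at 0.14 to 0.48, and the intervals of the 6 genes stay within the 3-fold limit of the study.

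AGO7, the ARGONAUTE of the trans-acting small RNA pathway, read 8.50, 8.39 and 8.46 in Col-0 and 8.51, 8.55 and 8.61 in Fe-1. The single arrays read 8.45 in Ler-0, 8.82 in Nw-0, 8.66 in Bay-0, 8.55 in Ts-1 and 8.44 in Van-0. Nw-0 was the highest array and Bay-0 the next, while Ler-0 and Van-0 lay among the Col-0 arrays. The difference from Col-0 was 0.37 ± 0.098 (standard error) in Nw-0 (limma, adjusted p = 0.0618) and 0.21 in Bay-0 (adjusted p = 0.206), and none was called, beside 8.39% of probe sets called for Nw-0. The Fe-1 arrays all lay above the Col-0 arrays, as the arrays of these accessions did without overlap for 45.7% of probe sets, and the difference was 0.10 (limma, adjusted p = 0.306). Across accessions AGO7 spanned 0.38 (limma F test, adjusted p = 0.148).

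AT5G21030 lay between the lower quartile and the median of all probe sets on all 11 arrays, whereas AGO7 and SE lay above the median and DDL, TGH and PHV above the upper quartile on every array. It read 6.65, 6.71 and 6.53 in Col-0, 6.65, 6.55 and 6.65 in Fe-1, 6.60 in Bay-0, 6.64 in Ler-0, 6.70 in Van-0, 6.81 in Nw-0 and 6.89 in Ts-1. Ts-1 and Nw-0 were the highest arrays and the rest overlapped. Neither difference passed the test, at 0.26 in Ts-1 (limma, adjusted p = 0.207) and 0.18 in Nw-0 (adjusted p = 0.375), and the range over accessions was 0.29 (limma F test, adjusted p = 0.373). None of the 6 genes was called in Ts-1, where 8.18% of probe sets were.

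Among the DCL1 partners, SE read 9.46, 9.51 and 9.73 in Col-0 and 9.23, 9.35 and 9.50 in Fe-1. It read 9.36 in Ler-0, 9.58 in Nw-0, 9.60 in Bay-0, 9.47 in Ts-1 and 9.54 in Van-0. The Fe-1 and Col-0 arrays overlapped, and the difference from Col-0 was -0.21 in Fe-1 (standard error 0.10; limma, adjusted p = 0.171) and -0.21 in Ler-0 (adjusted p = 0.414), neither called. With each array centred on its median the Fe-1 difference was -0.30 (limma, adjusted p = 0.0464), which is a call. No member was called for Fe-1 with the deposited values, where 29.3% of probe sets were.

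DDL read 10.45, 10.28 and 10.45 in Col-0 and 10.37, 10.33 and 10.41 in Fe-1. The single arrays of Bay-0, Ts-1 and Van-0, at 10.67, 10.66 and 10.62, were the 3 highest, and Ler-0 and Nw-0 read 10.49 each. The 3 high arrays include both ZLL-dependent and ZLL-independent accessions. Their differences from Col-0 were 0.27 in Bay-0 (limma, adjusted p = 0.136), 0.26 in Ts-1 (adjusted p = 0.190) and 0.22 in Van-0 (adjusted p = 0.213), and none passed the test. No member was called in Van-0, where 13.5% of probe sets were.

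TGH read 10.06, 10.20 and 10.39 in Col-0 and 9.93, 10.03 and 10.28 in Fe-1. It read 10.07 in Ler-0, 10.39 in Nw-0, 10.26 in Bay-0, 10.18 in Ts-1 and 10.02 in Van-0. The groups overlapped throughout. Its differences from Col-0 ran from -0.19 in Van-0 to 0.17 in Nw-0, and its range over accessions of 0.36 did not pass the F test (limma, adjusted p = 0.630). TGH also had the widest scatter within an accession, an SD of 0.17 pooled over Col-0 and Fe-1, wider than in 79.2% of probe sets, against 0.14 for SE (63.8%), 0.079 for AT5G21030 (25.7%), 0.073 for DDL (22.1%), 0.066 for PHV (16.9%) and 0.056 for AGO7 (11.2%).

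SE and TGH deviated together within accessions. Replicate 3 was the highest and replicate 1 the lowest of its accession for both genes, in Col-0 and in Fe-1. For SE the deviations from the accession mean ran from -0.13 in Fe-1 replicate 1 to 0.16 in Col-0 replicate 3, and for TGH from -0.16 in Col-0 replicate 1 to 0.20 in Fe-1 replicate 3. Over these 6 arrays r was 0.970, and 0.646% of the other probe sets followed SE at least as closely. This was the highest r of all pairs among the 6 genes, the next being AGO7 and DDL at 0.817. The share takes no account of the other pairs. The arrays share their RNA and hybridisation between the genes, so this r is a description.

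**Figure D3:**
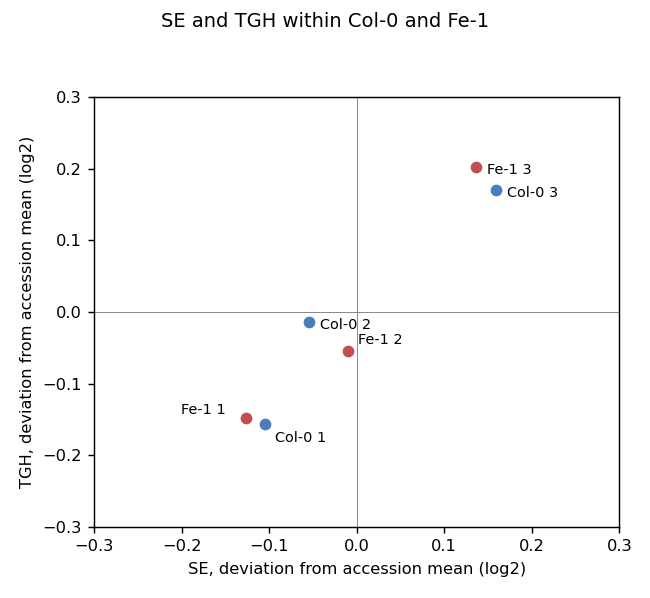
Deviation of TGH (vertical axis, log2) from its accession mean against that of SE (horizontal axis, log2) in the 3 Col-0 and 3 Fe-1 arrays, 1 point per array. The points lie near a line (r = 0.970), with replicate 3 of both accessions at the upper right and replicate 1 at the lower left.

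Set against all probe sets, the ranges of the 6 genes lay at or below the middle. The median range over accession means was 0.33 for the 6 genes and 0.48 for all probe sets. PHV had a wider range than 49.2% of probe sets, AGO7 than 35.8%, TGH than 33.5%, DDL than 22.9%, AT5G21030 than 22.3% and SE than 14.1%. No gap between neighbouring accessions in the order of levels was larger than the half-width of its 95% interval, for any of the 6 genes. The order of PHV from high to low was Bay-0, Ler-0, Van-0, Ts-1, Fe-1, Nw-0 and Col-0, and that of AGO7 was Nw-0, Bay-0, Fe-1, Ts-1, Col-0, Ler-0 and Van-0.

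**Figure D4:**
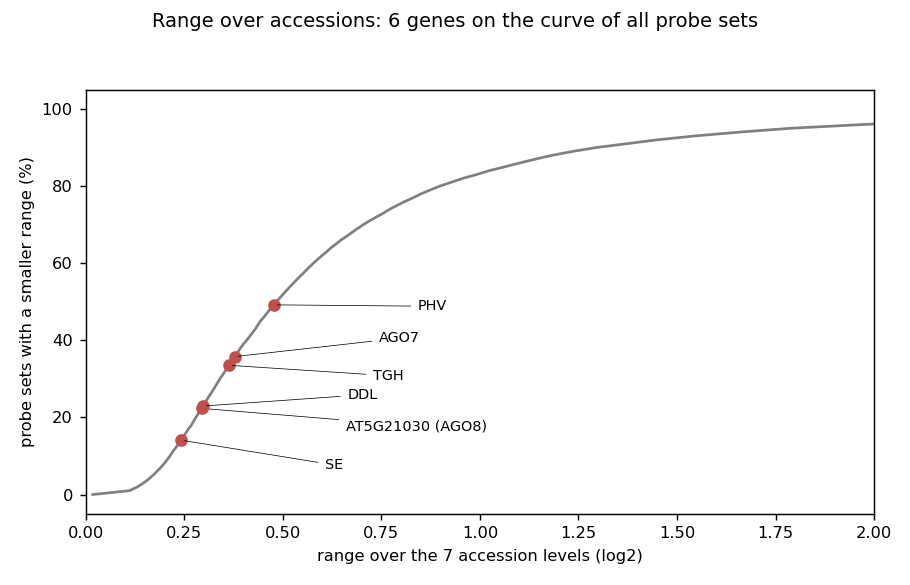
Share of all 22746 probe sets with a smaller range (vertical axis, %) against the range of the 7 accession means (horizontal axis, log2; the axis stops at 2), drawn as a grey curve with 1 red point for each of the 6 genes. The points lie between 0.24 for SE and 0.48 for PHV, and the median of all probe sets is 0.48.

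The arrays were made to look for factors that modify the need for ZLL, by comparing the dependent with the independent accessions. None of the 6 genes was called between ZLL-dependent and ZLL-independent arrays by limma, beside 0.448% of all probe sets, and none reached an unadjusted p under 0.05, against 17.4%. AGO7 was 8.60 ± 0.13 (SD, n = 6) in dependent and 8.47 ± 0.061 (SD, n = 5) in independent arrays, a difference of 0.13 (limma, adjusted p = 0.362). PHV was 9.997 ± 0.16 (SD, n = 6) with a lowest, median and highest array of 9.84, 9.94 and 10.22, and 9.86 ± 0.18 (SD, n = 5) with 9.69, 9.80 and 10.08, a difference of 0.13 (limma, adjusted p = 0.513). The high Van-0 and Ts-1 arrays and the low Col-0 arrays of PHV belong to the same group. The differences were -0.11 for SE, -0.046 for AT5G21030, -0.032 for DDL and -0.011 for TGH, and the arrays of the groups overlapped for all 6 genes. The 95% intervals of the 6 differences lay between -0.28 and 0.35. Arrays of 1 accession are not independent samples of a group, with an estimated correlation of 0.600 between them.

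Fe-1 and Ler-0 together against Col-0 gave no call among the 6 genes by limma, where 12.3% of probe sets were called, and 1 of the 6 at an unadjusted p under 0.05. The differences were 0.23 for PHV (limma, adjusted p = 0.142), -0.21 for SE (adjusted p = 0.197), -0.14 for TGH (adjusted p = 0.456), 0.077 for AGO7, 0.0060 for DDL and -0.0064 for AT5G21030. Each comparison with Col-0 uses the same 3 arrays.

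With an unadjusted p under 0.05 in place of the adjusted p, 1 of the 6 genes passed across accessions, in Fe-1, in Ler-0, in Nw-0 and in Van-0, 2 passed in Bay-0 and 3 in Ts-1. The corresponding shares of all probe sets were 44.1% across accessions and, against Col-0, 40.4% in Fe-1, 27.1% in Ler-0, 24.0% in Nw-0, 29.5% in Van-0, 28.8% in Bay-0 and 23.0% in Ts-1, with 29.1% for Fe-1 and Ler-0 together. When the 3-fold limit of the study was added to the adjusted p, none of the 6 genes passed in any comparison. That limit was passed by 1.40% of probe sets in Fe-1, 1.63% in Ler-0, 0.936% in Nw-0, 1.35% in Bay-0, 1.08% in Ts-1, 1.20% in Van-0, 0.703% in Fe-1 and Ler-0 together and 0.0528% between the ZLL groups.

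Of the further genes of the pathway, 7 could be read: SQN, a cyclophilin-type cofactor of ARGONAUTE proteins, RDM16 and NERD of the silencing pathways, SIC, which takes part in microRNA production, LCR, an F-box target of a microRNA, and the leaf polarity genes YAB3 and YAB5. Across accessions 2 of the 7, SQN and RDM16, were called, near the 31.0% of all probe sets. Against Col-0, SQN, RDM16 and NERD were called higher in Fe-1, where 17.8% of all probe sets were called higher. None of the 7 was called lower in Fe-1, where 2599 of the 22746 probe sets were. SQN has 2 probe sets of its own, and only the one with the higher mean over all arrays was analysed here. With that probe set SQN read 5.87, 6.08 and 6.06 in Col-0, 8.63, 8.61 and 8.70 in Fe-1, 6.55 in Bay-0, 7.10 in Nw-0, 8.15 in Ler-0, 9.03 in Van-0 and 9.44 in Ts-1. Its order thus differed from that of PHV, where Bay-0 was highest, although Col-0 was lowest for both; over the 7 accession means their r was 0.293.

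RDM16, a splicing factor that takes part in RNA-directed DNA methylation, shared with PHV and SQN that all 3 Col-0 arrays lay below the 8 others in the deposited values. It read 9.31, 9.19 and 9.10 in Col-0, 9.48, 9.66 and 9.63 in Fe-1, 9.41 in Van-0, 9.46 in Ler-0, 9.64 in Nw-0, 9.83 in Bay-0 and 9.91 in Ts-1. It was higher than in Col-0 by 0.71 in Ts-1 (limma, adjusted p = 0.0133), by 0.63 in Bay-0 (adjusted p = 0.0149) and by 0.39 in Fe-1 (adjusted p = 0.0126). Its range across accessions was 0.71 (limma F test, adjusted p = 0.0199). The range stayed at 0.71, but was not called, without Col-0 replicate 2 (adjusted p = 0.0599) and without the 3 arrays of high BAN signal (adjusted p = 0.0669). NERD, a protein that binds ARGONAUTE and acts in siRNA-directed silencing, was higher in Fe-1 by 0.57 (limma, adjusted p = 0.0160), and missed the threshold without Fe-1 replicate 1 (difference 0.53, adjusted p = 0.05003) or 3 (difference 0.55, adjusted p = 0.0529). With the 3 arrays of high BAN signal left out, which leaves 1 Fe-1 array, the Fe-1 difference was 0.65 for NERD (limma, adjusted p = 0.134) and 0.28 for RDM16 (adjusted p = 0.225), and neither was called.

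The probe sets of 1 named gene whose accession means followed each of the 6 most closely were sought among 6403 with a range of at least 0.5. For PHV they were nad1, a mitochondrial subunit gene of complex I (r = 0.953), AT1G72070 (0.948) and AT3G01660 (0.933). AGO7 was followed by AT3G06280 (0.990), AT5G47460 (0.981) and AT1G50630 (0.965), and DDL by AT5G46550 (0.983), AT3G62920 (0.955) and PDF1B (0.954). For SE they were AT3G26730 (0.987), AT2G30480 (0.959) and AT3G03970 (0.950), for TGH AT5G06400 (0.965), AT2G23940 (0.965) and AT2G20210 (0.956), and for AT5G21030 AT1G43200 (0.974, a probe set that may cross-hybridise), AT2G42240 (0.961) and IAA29 (0.937). Some of these probe sets were dim. The accession means ran from 4.09 to 4.69 for AT3G06280, from 4.165 to 5.04 for AT1G50630 and from 4.78 to 6.52 for AT1G72070. The lower quartiles of the arrays ran from 4.92 to 5.04. With 7 means and so many candidates, the values of r serve as a ranking only.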

How the data were processed

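RNA of torpedo-stage embryos was hybridised to Affymetrix ATH1 arrays, whose probes were designed on Col-0 sequence. Per the labels and the methods, RMA was run by the authors on the 11 arrays, giving the deposited log2 value of each probe set. No version of RMA and no chip definition was found in the paper or labels. RMA subtracts background, forces 1 distribution on the arrays and combines the probes of a set, and 28.7% of probe sets hold an equal value on at least 2 arrays. No hybridisation date or batch is given in the labels. Mismatches of probes with the other accessions were not tested.

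The 64 chip controls were left out. The chip annotation gives 1 gene to 13513 probe sets, several to 503 and lists none for 8730; 13436 of the first were matched to the TAIR10.1 gene table. The 6 genes, the 126 genes of the 9 lists and the tests were chosen with earlier results of these data known. RDM16, NERD, YAB3, YAB5, PAP85, AGL62 and IKU2 were added to the lists once the annotated genes were known and before their values were seen. Named are the 6 genes, list genes called in any comparison (at most 4 per list), and for each of the 6 the 3 most alike probe sets. SIC, LCR, YAB3, YAB5 and the markers are named to account for the lists, and DDL's 3 high arrays were chosen after values were seen.

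limma 3.58.1 in R 4.3.3 was used with 1 mean per accession (F test over accessions and each accession minus Col-0; 4 residual degrees of freedom, all from Col-0 and Fe-1) and in fits of 2 groups with each array as a sample. The call was an adjusted p under 0.05 (Benjamini-Hochberg over 22746 probe sets); the 3-fold limit of the study was an alternative. Other alternatives were a repeated quantile normalisation, centring on array medians, dropping the dimmest 25% or the probe sets liable to cross-hybridise, a trended robust prior, unadjusted p, accession means or a random accession block, the replicate number as a block, and the omission of single arrays or of the 3 arrays with high BAN signal. The fits were tested on simulated data in which lone arrays had the same spread as replicate arrays, so the borrowed spread was not tested there. Arrays give no depth, and their number limits the precision. Analyses used Python 3.11.15, pandas 2.3.3 and matplotlib 3.10.9.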

Additional observations from a re-analysis of the deposited data

Results flagged for a closer look

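SE was 9.73 in Col-0 replicate 3, the highest of the 5 ZLL-independent arrays and far from the next, Van-0 at 9.54. This gap was 0.712 of the group's range, just over the critical value of 0.71. It was the only such array among 18 groups checked over the 6 genes, and chance flags about 5% of groups.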

How the results depend on the processing

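Of the 6 genes 1 was called across accessions, 2 times among the 5 accessions with a single array (PHV in Ler-0 and Bay-0), and none in the other comparisons; these counts moved as follows. With an unadjusted p the counts were 1 for Fe-1, 8 for the single accessions and 1 for Fe-1/Ler-0. With the 3-fold limit they were 0 across accessions and 0 for the single accessions. Renewed quantile normalisation gave 0 across accessions (PHV, limma adjusted p = 0.0545). Centring on array medians gave 0 across accessions (PHV, adjusted p = 0.104), 1 for Fe-1 (SE) and 1 for the single accessions, since PHV in Ler-0 was at adjusted p = 0.0902 by limma. Centring moved the difference over all probe sets by 0.101 for Ler-0, the largest such shift. Without the 3 arrays of high BAN signal the counts were 0 across accessions and 0 for the single accessions, with the PHV differences unchanged (0.48 across accessions, 0.42 in Ler-0 and 0.48 in Bay-0) and fewer residual degrees of freedom. With single arrays left out they ran from 0 to 1 across accessions, from 1 to 2 for the single accessions and from 0 to 0 in the others. The trended robust prior also called PHV in Van-0 (limma, adjusted p = 0.0467).

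Among the 6 genes, directions turned only for differences that passed no test with the deposited values. With renewed quantile normalisation these were AT5G21030 in Ler-0 (-0.11) and Van-0 (-0.025), SE in Nw-0 (-0.024) and Bay-0 (-0.011), and DDL in Fe-1/Ler-0 (-0.028). With median centring they were AT5G21030 in Ler-0 (-0.097) and Van-0 (-0.035), DDL in Ler-0 (-0.0050), TGH in Bay-0 (-0.025), SE in Bay-0 (-0.040), and AGO7 (-0.021) and DDL (-0.091) in Fe-1/Ler-0. Without the 3 arrays of high BAN signal they were AT5G21030 in Fe-1 (0.024) and Fe-1/Ler-0 (0.014) and DDL between the ZLL groups (0.044). TGH between the ZLL groups was 0.060 with accession means and 0.042 with a random accession block.

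With single arrays left out, differences from Col-0 crossed 0 for AGO7 in Ler-0 (-0.036 to 0.022) and Van-0 (-0.040 to 0.018), AT5G21030 in Bay-0 (-0.088 to 0.0046), Fe-1 (-0.062 to 0.030) and Ler-0 (-0.047 to 0.045), DDL in Fe-1 (-0.079 to 0.0041), SE in Bay-0 (-0.021 to 0.11), Nw-0 (-0.044 to 0.088) and Van-0 (-0.082 to 0.051), and TGH in Bay-0 (-0.032 to 0.13) and Ts-1 (-0.11 to 0.049). For Fe-1/Ler-0 they were AT5G21030 (-0.058 to 0.034) and DDL (-0.049 to 0.034), and between the ZLL groups AT5G21030 (-0.088 to 0.0030), DDL (-0.084 to 0.0096) and TGH (-0.056 to 0.044). The cause was not tested.

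With a replicate block the count of calls was 0 in each of the 3 comparisons fitted: SE in Fe-1 was -0.21 (limma, adjusted p = 0.0774), PHV in Fe-1 0.17 (adjusted p = 0.166) and DDL in Fe-1/Ler-0 -0.0056. Deviations of equally numbered Col-0 and Fe-1 arrays correlated at 0.231, 0.0354 and 0.112, and those of unequally numbered arrays at -0.151 to 0.0372. The numbers were not taken as pairs in the main fits, and whether they mark a shared preparation was not tested. The RDM16 call in Fe-1/Ler-0 held in 9 of 20 settings, among them the unadjusted p, which passes wherever the adjusted p does. That call was lost with the block (adjusted p = 0.100), with renewed quantile normalisation (0.0561) and with median centring (0.0862), by limma. A mean over several probe sets could not be formed, since each of the 6 genes has 1. The spread of the lone arrays was borrowed from Col-0 and Fe-1, which limits the precision.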
